A study of Mus musculus with 18 samples.

Results

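Whole cell aggregates of TKO cells were compared with those of wild-type cells after 6 days in medium without added cytokines, in 4 of the 18 RNA-seq libraries of the series. TKO mouse embryonic stem cells lack Tet1, Tet2 and Tet3, the genes for the enzymes that oxidise 5-methylcytosine in DNA. The TKO line was 1 clone, made from the wild-type line E14Tg2a by deleting the 3 genes in turn, so that genotype and clone cannot be told apart. Both wild-type libraries carry the name WT_D6_NOCYT and both TKO libraries the name TKO_D6_NOCYT, with replicates numbered 1 and 2. Cells of either genotype were first turned into epiblast-like cells (EpiLCs) with Activin A and Fgf and then aggregated in GK15, a medium with serum replacement. BMP4, BMP8a, SCF, LIF and EGF, the proteins added to other aggregates of the study to obtain primordial germ cell-like cells (PGCLCs), were left out in all 4 libraries. Aggregates were lysed whole, without sorting. In the deposited table the 4 libraries are described by genotype, day and medium only, and all genes that passed the filter on low counts, 16582 of 25239, were compared.

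TET enzymes start the removal of DNA methylation, and many enhancers and germline gene promoters are regulated by methylation. EpiLCs resemble the epiblast shortly after implantation, a tissue from which both the somatic lineages and the primordial germ cells (PGCs) arise. Without BMP, epiblast cells in serum-free medium tend towards neural tissue, in which progenitors expressing Sox1 and Pax6 give rise to neurons under the control of Notch signals and proneural transcription factors. The comparison asks which programmes aggregates with and without TET proteins expressed when no germline signal was added.

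The wild-type libraries held 33893720 and 13195593 counts and the TKO libraries 12063489 and 11286050, of which the ribosomal locus Rn45s took 17.4 to 22.3%. Levels below are normalised counts, that is counts divided by the size factor of the library, and pairs of values are replicate 1 and replicate 2. Log2 fold changes are TKO relative to wild-type, ± SE, from 2 libraries in each group, and where a group had 3 counts or fewer in each library the smallest fold that 3 counts allow is given in their place. Values without 1 of the 4 libraries are given where they changed a call or moved a fold by more than 1.5 times. This holds only where the remaining library of the group had more than 3 counts. Such folds were obtained for 146 genes, and other genes named below, such as Otx2, Zic2, Wnt1 and Peg13, have none. Normalised counts depend on transcript length, so that they compare libraries for 1 gene and do not rank genes. Whether the replicates came from separate aggregations is not given in the labels used here. The study's captions call such data points biological replicates, without stating whether each was a separate aggregation. P-values thus measure only the spread between these libraries. An exact two-sided permutation test of 2 libraries against 2 cannot give a p below 0.333, and all tests here are those of an edgeR model that shares the spread between genes and groups.

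The wild-type replicates differed from each other more than the TKO replicates did. Of 12316 genes with a mean normalised count of at least 50, 2437 (19.8%) differed by more than 2-fold between the wild-type replicates and 240 (1.95%) between the TKO replicates. The correlation over tested genes on the log2 scale was 0.951 between the wild-type replicates, 0.982 between the TKO replicates and 0.724 to 0.773 between genotypes. Wild-type replicate 1 held more of the neuronal genes, which were above replicate 2 in 28 of 30 cases, and replicate 2 more of the ribosomal protein genes, which were above replicate 1 in all but 1 of 81. Depth differed as well, wild-type replicate 1 being the deepest of the 4 libraries. In whole aggregates, fewer cells of a type and less RNA per cell cannot be told apart.

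Counts on the Tet genes were examined first. For Tet3 (chr6:83362373-83457208, mm10), wild-type aggregates had 5849 and 3466 normalised counts and TKO aggregates 252 and 237, a log2 fold change of -4.23 ± 0.33 with adjusted p = 7.45e-08. For Tet2 (chr3:133463677-133545136) the values were 1428 and 574 in wild-type against 274 and 304 in TKO, and the log2 fold change was -1.78 ± 0.44 with adjusted p = 0.00303. Tet1 (chr10:62804570-62887469) did not pass the test, and its levels overlapped, with 1304 and 595 in wild-type against 998 and 737 in TKO (log2 fold change -0.12 ± 0.31, adjusted p = 0.777). In EpiLCs, which carry the same deletions, Tet1 had a mean of 6131 in wild-type and 852 in TKO, a log2 fold change of -2.82. The stretch from start to stop codon was removed from each gene. Non-coding parts made up 60% of the GENCODE vM21 exon bases of Tet1, 65.8% of those of Tet2 and 67.4% of those of Tet3. Counts were made on the refGene annotation, for which these shares were not computed. Non-coding parts that lie between the start and stop codons were removed as well, and these shares do not separate them. Counts on exon parts outside the deleted stretch cannot check the deletion. The count table gives no exon values, and without wild-type replicate 1, Tet3 alone passed. Tet2 had a log2 fold change of -0.98 (no longer passing the test) and Tet1 of 0.56 when wild-type replicate 1 was left out. Tet1 had a log2 fold change of 0.10 when TKO replicate 2 was left out.

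Differential expression was widespread. Taking the limits of the study (adjusted p under 0.05, log2 fold change past 2), 2381 genes were higher in TKO aggregates (14.4% of the genes tested) and 1568 were lower (9.46%). Without a limit on the fold, 4727 genes (28.5%) were higher and 4461 (26.9%) lower, and these shares are the background for the counts of list members below. The median log2 fold change of all genes tested was 0.01, and the levels of the groups did not overlap in 12205 of the 16582 genes tested. With 2 libraries in each group, a share of about 0.333 without overlap is expected where the groups do not differ.

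By the difference in normalised counts, which favours long and abundant transcripts, the first 10 lower genes included genes of neural progenitors and young neurons. All 10 also had counts in wild-type EpiLCs, with means from 384.7 for Dpysl2 to 5071 for Map1b. Sox11, a transcription factor of immature neurons, had 44450 and 21710 normalised counts in wild-type and 1088 and 349.6 in TKO, a log2 fold change of -5.50 ± 0.59. Map1b, a microtubule-associated protein of growing axons, had 45830 and 22640 in wild-type against 4292 and 4464 in TKO. Further genes of this order were the tubulins Tuba1a, Tubb2b and Tubb3, the intermediate filament genes Nes and Vim, the noncoding RNA Miat, Dpysl2 and Marcks, with log2 fold changes between -8.30 for Miat and -2.30 for Vim. In each of these 10 genes both wild-type libraries lay above both TKO libraries. Sox11 had a log2 fold change of -4.90 and Miat of -6.96 when wild-type replicate 1 was left out. Miat had a log2 fold change of -8.97 when wild-type replicate 2 was left out. Sox11 had a log2 fold change of -6.55 and Miat of -9.16 when TKO replicate 1 was left out. Sox11 had a log2 fold change of -4.89 when TKO replicate 2 was left out.

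In the other direction, the first genes by the same measure were Slc2a3, a glucose transporter, with 5155 and 1134 in wild-type against 26440 and 23170 in TKO, and Dppa5a, an RNA-binding protein of pluripotent cells, with 47.1 and 16.2 in wild-type against 18230 and 22830 in TKO. Fn1, Pou5f1, Gpx4, Actn4, Nanog, Msh6, Rif1 and Mybl2 completed these 10 genes. They combined pluripotency factors with genes of the extracellular matrix (Fn1, fibronectin), of protection from lipid peroxidation (Gpx4) and of DNA mismatch repair (Msh6). Their log2 fold changes ran from 2.07 for Rif1 to 9.23 for Dppa5a. Dppa5a had a log2 fold change of 10.31 when wild-type replicate 1 was left out.

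**Figure D1:**
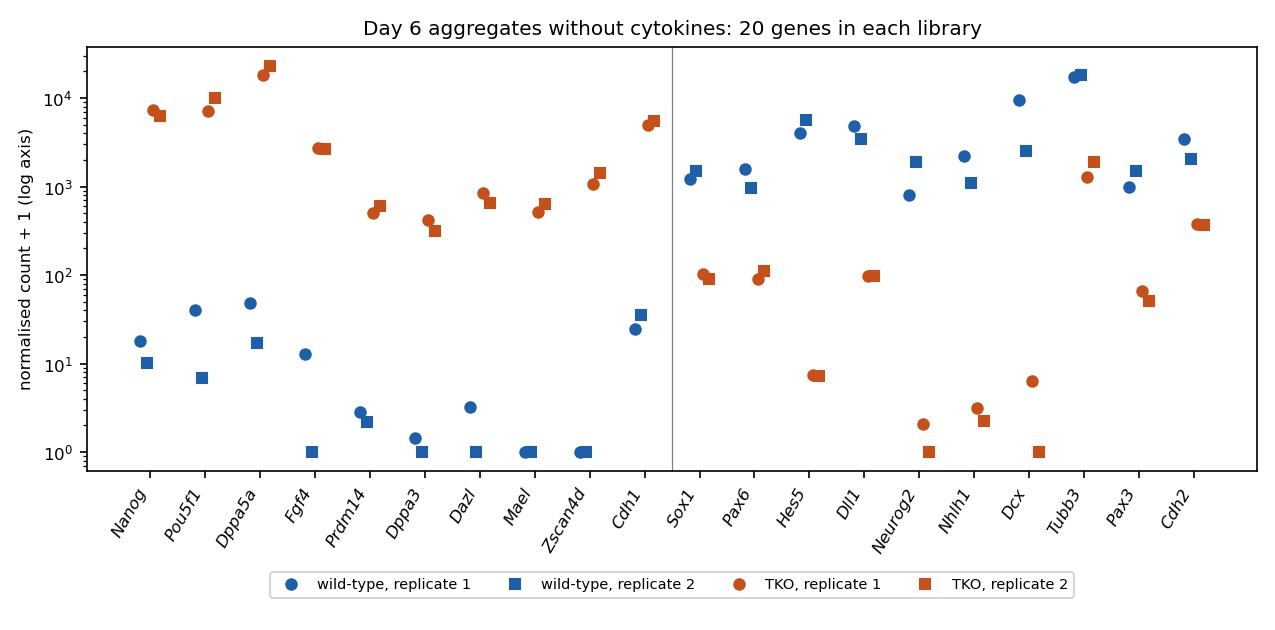
Normalised count plus 1 (log axis) of 20 genes in each of the 4 day 6 libraries without cytokines; blue symbols are wild-type and orange symbols TKO, circles replicate 1 and squares replicate 2. Left of the line all 10 genes are higher in both TKO libraries, and right of it all 10 are lower in both.

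Pluripotency genes were expressed in TKO aggregates at levels far above those of wild-type aggregates. All 19 genes of the pluripotency list were higher in TKO at an adjusted p below 0.05, 18 of them beyond a log2 fold change of 2, with a median log2 fold change of 7.51. CPM (counts scaled to a library total of 1000000) summed over the list were 282 and 223 in wild-type and 5852 and 5822 in TKO. Nanog (chr6:122707489-122714633, mm10), a transcription factor of the pluripotency network, had 16.8 and 9.26 normalised counts in wild-type and 7386 and 6303 in TKO, a log2 fold change of 8.93 ± 0.39 (adjusted p = 4.71e-10). Pou5f1 (chr17:35506032-35510777), which encodes OCT4, the factor that pluripotent cells and PGCs share, had 39 and 5.79 in wild-type against 7197 and 9948 in TKO (log2 fold change 8.38 ± 0.60). Both genes were thus close to silent in wild-type and abundant in TKO. The smallest difference was that of Sox2, with 2875 and 2757 in wild-type against 6785 and 6661 in TKO (log2 fold change 1.27 ± 0.30), a factor that neural progenitors also express. Nanog had a log2 fold change of 9.52 and Pou5f1 of 10.51 when wild-type replicate 1 was left out.

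Genes of the naive state belonged to the set that was higher. Zfp42, a classical marker of embryonic stem cells also called Rex1, had 13.2 and 4.63 in wild-type against 3416 and 3084 in TKO. Esrrb, a nuclear receptor of naive cells, had 140.1 and 32.4 in wild-type against 4014 and 4397 in TKO, and Tfcp2l1, a LIF-responsive factor, 45.3 and 31.3 in wild-type against 2779 and 2819 in TKO. Klf2, Klf4 and Klf5, factors that maintain the naive state, had log2 fold changes of 7.51, 4.43 and 6.50. Tcl1, a cofactor of AKT, was at 1.36 and 0 in wild-type against 688 and 635 in TKO, at least 274-fold higher. Fgf4 and Tdgf1, secreted products of pluripotent cells, had log2 fold changes of 8.41 and 9.35. Klf2 was at 15 and 12.7 in wild-type against 2485 and 2639 in TKO. The means of wild-type EpiLCs were 391 for Nanog, 149.9 for Esrrb, 66.4 for Klf2 and 17820 for Pou5f1. Day 6 TKO aggregates thus lay above EpiLCs in Nanog, Esrrb and Klf2 and below them in Pou5f1, differences that were not tested.

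Genes of the formative state, which EpiLCs represent, moved in both directions, with 5 of 11 higher (Fgf5, Dnmt3b, Utf1, Lef1 and Tcf7l1) and 4 lower (Pou3f1, Sall2, Sox3 and Sox4). Utf1 had 7.71 and 0 in wild-type against 2418 and 2707 in TKO (log2 fold change 8.92 ± 0.50), and Fgf5, the classical marker of the early postimplantation epiblast, 3.17 and 0 in wild-type against 323 and 317 in TKO. Dnmt3b, the de novo DNA methyltransferase of this stage, had 267 and 337 in wild-type against 1611 and 2269 in TKO (log2 fold change 2.71 ± 0.29), beside a mean of 45490 in wild-type EpiLCs. Sox3 and Sox4, which neural cells also express, had log2 fold changes of -3.49 and -3.56. Otx2 did not pass the test, and its wild-type replicates stood at 10.4 and 594 beside 1026 and 972 in TKO.

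Genes of PGC specification were higher with few exceptions, 10 of 12 members and 0 lower, with a median log2 fold change of 5.71. The 3 factors that install the germline programme in the embryo were among them. Prdm1, which encodes BLIMP1, had 4.99 and 1.16 in wild-type against 422 and 483 in TKO (log2 fold change 6.88 ± 0.49, adjusted p = 3.06e-08). Prdm14 was at 1.81 and 1.16 in wild-type against 504 and 602 in TKO (log2 fold change 8.33 ± 0.58). Tfap2c, which encodes AP2γ, was at 29 and 57.9 in wild-type against 1653 and 1774 in TKO (log2 fold change 5.41 ± 0.28). In all 3 genes both TKO libraries lay far above both wild-type libraries. Dppa3, the gene of the PGC and oocyte protein STELLA, was at 0.453 and 0 in wild-type against 422 and 317 in TKO, at least 153-fold higher. The surface markers Ifitm1 and Ifitm3 had log2 fold changes of 6.61 and 4.45, and Itgb3, whose product CD61 marks PGCLCs, 3.40. Kit, the receptor of SCF, and Nanos3, an RNA-binding protein that protects PGCs, did not pass the test. Nanos3 had 56.7 and 35.9 in wild-type against 31.2 and 22.7 in TKO (log2 fold change -0.77 ± 0.41, adjusted p = 0.122), and Kit 1253 and 521 in wild-type against 1766 and 1599 in TKO. Itgb3 had a log2 fold change of 5.42 when wild-type replicate 1 was left out. Itgb3 had a log2 fold change of 2.77 when wild-type replicate 2 was left out.

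Genes of meiosis and of later germ cells were higher too. Of 31 tested members, 26 were higher in TKO and 0 lower, with a median log2 fold change of 4.65. For 12 members a group had 3 counts or fewer in each library, and with these set to the fold that 3 counts allow the median was 4.0. These members could pass the filter on low counts only through other groups, so that the share called was in part set by the filter. Spo11, the nuclease that starts meiotic recombination, was not tested because its counts were too low. Dazl, an RNA-binding protein that licenses germ cells for gametogenesis, had 2.27 and 0 in wild-type against 844 and 650 in TKO (log2 fold change 8.79 ± 0.75). Ddx4, the germ cell helicase also called VASA, had 4.53 and 3.47 in wild-type against 410.3 and 413 in TKO (log2 fold change 6.60 ± 0.46). Genes of the synaptonemal complex, the protein zipper of paired chromosomes, were among those that were higher, with Sycp3 at 11.8 and 3.47 in wild-type against 379 and 352 in TKO and Syce1 at 0 and 0 in wild-type against 160.4 and 139 in TKO. Stra8, which opens meiosis in response to retinoic acid, was at 0 and 0 in wild-type against 363 and 471 in TKO, at least 172-fold higher. The members Rec8, Msh5, Prdm9, Zglp1 and Tex12 did not pass the test, at 240.3 and 181 in wild-type and 212 and 221 in TKO for Rec8, a cohesin of meiotic chromosomes.

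The piRNA pathway silences transposable elements in germ cells. Of its 17 tested genes, 11 were higher and 1 lower, and the median log2 fold change was 3.70. With the 6 members at 3 counts or fewer set to their bound the median was 1.58. These 6 could pass the filter on low counts only through other groups, which in part set the share called. Mael, a germ cell protein of the pathway, was at 0 and 0 in wild-type against 519 and 641 in TKO, at least 240-fold higher. Piwil2, a PIWI protein, had 7.71 and 1.16 in wild-type against 322 and 394 in TKO (log2 fold change 6.0 ± 0.36), and Tdrd12, a Tudor domain helicase, 6.35 and 6.95 in wild-type against 782 and 707 in TKO (log2 fold change 6.83 ± 0.41). Piwil4, the nuclear PIWI protein of fetal germ cells, was at 7.25 and 2.32 in wild-type against 3.23 and 10.1 in TKO and did not pass. Tdrkh was lower, with 757 and 552 in wild-type against 170.1 and 203 in TKO, and without wild-type replicate 2 a further member passed as lower.

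Promoter sequences are shown for 2 germline genes that were at or near 0 in wild-type aggregates and for 2 neural genes that were close to silent in TKO aggregates, because CpG-rich germline promoters are a class known to depend on DNA methylation. The letters CACGTG, an E-box that the PRC1.6 subunits MGA and MAX can bind, are in capitals. Each stretch holds 250 bases before 1 promoter start listed for the gene and the first 50 after it. All are from RefSeq on GRCm38.p6, written 5′ to 3′ on the strand of the gene. For Neurog2 and Dcx this start is not the outer end of the gene's annotated span. Stk31 lies at chr6:49395289-49395588 on the plus strand, Mael at chr1:166238695-166238994 on the minus strand, Neurog2 at chr3:127632886-127633185 on the plus strand and Dcx at chrX:143933170-143933469 on the minus strand.
Stk31: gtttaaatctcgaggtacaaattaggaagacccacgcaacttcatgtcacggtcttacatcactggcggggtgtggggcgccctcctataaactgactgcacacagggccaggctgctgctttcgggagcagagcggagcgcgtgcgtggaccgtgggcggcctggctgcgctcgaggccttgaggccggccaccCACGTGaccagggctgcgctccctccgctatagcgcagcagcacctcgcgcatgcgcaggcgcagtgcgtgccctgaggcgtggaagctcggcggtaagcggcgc
Mael: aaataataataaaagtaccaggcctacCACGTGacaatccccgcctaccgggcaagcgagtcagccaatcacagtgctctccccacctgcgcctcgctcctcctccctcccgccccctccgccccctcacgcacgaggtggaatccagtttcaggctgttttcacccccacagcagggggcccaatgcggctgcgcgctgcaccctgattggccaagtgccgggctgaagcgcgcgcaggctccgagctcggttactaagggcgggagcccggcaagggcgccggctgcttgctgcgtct
Neurog2: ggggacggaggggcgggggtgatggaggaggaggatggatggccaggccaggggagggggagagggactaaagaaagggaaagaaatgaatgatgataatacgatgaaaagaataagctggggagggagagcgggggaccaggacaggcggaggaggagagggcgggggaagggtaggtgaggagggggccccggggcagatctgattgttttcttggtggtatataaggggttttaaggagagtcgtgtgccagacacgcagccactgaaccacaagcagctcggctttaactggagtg
Dcx: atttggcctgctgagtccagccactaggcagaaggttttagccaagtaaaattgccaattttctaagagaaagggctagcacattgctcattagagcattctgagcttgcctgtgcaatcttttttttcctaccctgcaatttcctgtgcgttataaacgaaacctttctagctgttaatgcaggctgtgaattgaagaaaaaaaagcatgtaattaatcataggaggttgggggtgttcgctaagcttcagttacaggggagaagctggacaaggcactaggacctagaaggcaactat
The ratio of observed to expected CpG was 0.908 for Stk31, 0.780 for Mael, 0.570 for Neurog2 and 0.219 for Dcx. Over the lists, the median ratio was 0.700 for meiosis, 0.701 for piRNA, 0.700 for neural progenitor, 0.697 for proneural and 0.730 for neuronal genes. The shown promoters thus do not stand for their lists. Promoters were matched for 66.7 to 77.8% of the tested members of the neural lists. The 2 germline stretches were picked among list promoters that hold CACGTG, so that its presence in them was fixed in advance. CACGTG was absent from the 2 neural stretches, which were picked without this condition. It was found in 9 of the 29 meiosis list promoters (31.0%) and in 6 of the 15 piRNA list promoters (40%), against 9.86% of the promoters of tested genes and 7.24% of all 27025 promoters of this length, the letters being the same on both strands. The meiosis genes with the letters were Ddx4, Hormad1, Stag3, Stk31, Sycp1, Sycp3, Taf7l, Tex12 and Zglp1, of which the last 2 did not pass the test, and the piRNA genes were Fkbp6, Mael, Mov10l1, Piwil1, Tdrd1 and Tdrd9, of which Tdrd9 did not pass. A promoter was matched for 73.3% of the genes higher in TKO and 77.3% of those tested, under the 80% needed. CACGTG was in 7.85% of the matched promoters of higher genes and 6.64% of those of lower genes. The shares of called and of tested genes cover matched promoters only, and no conclusion is drawn from comparing them. The same limit holds for the share of tested genes set beside the 2 lists. Stk31, a kinase-like gene of germ cells, had 0.453 and 0 normalised counts in wild-type and 359.6 and 336 in TKO, at least 144-fold higher. Methylation of these promoters was not measured here.

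Genes of the 2-cell-like state, a rare state of embryonic stem cells with transcripts of the early cleavage embryo, had counts in the TKO libraries and none in the wild-type libraries of day 6. All 12 tested members were higher in TKO, and no wild-type library of day 6 had a single count on any of them. The fitted median log2 fold change of 12.03 thus became 7.65 with the members at their bound. Such genes could pass the filter on low counts only through other groups, so that the share of tested members that were higher was in part set by the filter. Summed over the list, CPM were 444 and 497 in TKO. Zscan4d was at 1078 and 1405 normalised counts in TKO, at least 514-fold higher, Zscan4c at 819 and 885 and Usp17le at 683 and 887. The Zscan4 and Usp17l families have nearly identical copies, and how counts split among members is uncertain. Zfp352 was at 93.7 and 112 in TKO and Tmem92 at 404 and 579. Of the genes with a mean count of at least 100, those first by fitted log2 fold change included further genes of cleavage embryos or of unnamed families, with Gm21761 at 1475 and 2159, Eif4a3l1 at 1072 and 1650 and AU015836 at 1019 and 795 in TKO and all at 0 in wild-type. Dux, which activates this programme, was not analysed here.

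**Figure D2:**
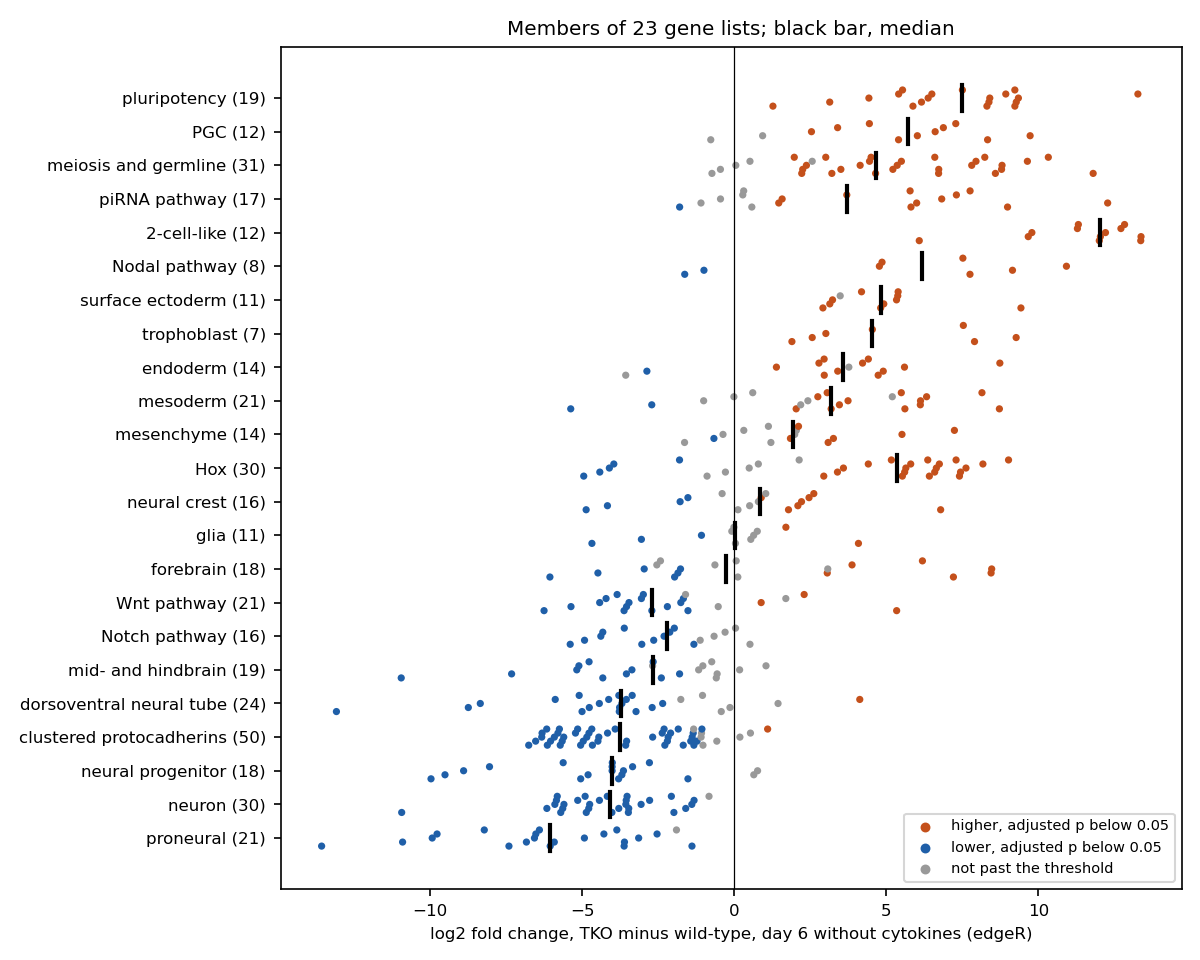
Log2 fold change between TKO and wild-type day 6 aggregates for each tested member of 23 gene lists, with the number tested in brackets; orange points were higher and blue points lower at an adjusted p below 0.05, grey points did not pass, and the black bar is the median. Medians run from 12.03 for 2-cell-like genes, all at their bound in wild-type, to -6.05 for proneural genes.

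Neural progenitor genes were lower in TKO aggregates. Of 18 genes 16 were lower and 0 higher, with a median log2 fold change of -4.01. CPM summed over the list were 3190 and 4010 in wild-type and 418 and 358 in TKO. Sox1, the first factor specific to the neural plate, had 1204 and 1516 normalised counts in wild-type and 102 and 89.6 in TKO (log2 fold change -3.80 ± 0.47, adjusted p = 9.1e-06). Pax6, a regulator of neural progenitors, had 1562 and 954 in wild-type against 88.3 and 111 in TKO (log2 fold change -3.64 ± 0.45). The POU factors of neural progenitors were close to silent in TKO. Pou3f2 had 5362 and 2562 in wild-type against 11.8 and 3.79 in TKO (log2 fold change -8.90 ± 0.65). Pou3f3 had 4205 and 3260 in wild-type against 19.4 and 7.57 in TKO (log2 fold change -8.05 ± 0.58). Fabp7, a fatty acid binding protein of radial glia, was among the most different of all genes, with 3309 and 9819 in wild-type against 10.8 and 1.26 in TKO (log2 fold change -9.97 ± 0.68). Of this list, Zic2 and Zic5 alone did not pass, and their wild-type replicates were far apart, with Zic2 at 253 and 2733 in wild-type against 2490 and 2508 in TKO and Zic5 at 38.1 and 621 in wild-type against 446 and 548 in TKO. Without wild-type replicate 2 the list had 2 members higher in TKO. Pou3f2 had a log2 fold change of -8.27 when wild-type replicate 1 was left out. Fabp7 had a log2 fold change of -8.97 when wild-type replicate 2 was left out. Pou3f3 had a log2 fold change of -8.91 when TKO replicate 1 was left out. Fabp7 had a log2 fold change of -9.21 when TKO replicate 2 was left out.

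The Notch pathway, through which neighbouring cells hold each other back from becoming neurons, had 11 of 16 genes lower and 0 higher. Among the ligands, Dll1 had 4848 and 3424 in wild-type against 96.9 and 97.2 in TKO (log2 fold change -5.39 ± 0.33) and Dll3 1695 and 1128 in wild-type against 46.3 and 45.4 in TKO (log2 fold change -4.92 ± 0.38), while Jag2 did not pass. Of the receptors, Notch1 and Notch3 were lower, with log2 fold changes of -2.31 and -1.32, and Notch2 had 1580 and 2441 in wild-type against 1954 and 2135 in TKO and did not pass. Hes5, the Notch target of neural progenitors, fell to near silence, from 4013 and 5607 in wild-type to 6.46 and 6.31 in TKO (log2 fold change -9.51 ± 0.43). Its relative Hes1, a target that other tissues use, did not pass and was at 179 and 374 in wild-type against 414 and 359.7 in TKO. Nrarp, a feedback inhibitor, had 3097 and 2610 in wild-type against 138 and 131 in TKO (log2 fold change -4.39 ± 0.30). Without wild-type replicate 2, 1 member of the list was higher in TKO.

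Proneural transcription factors, which commit progenitors to the neuronal fate, showed the lowest median of all lists, -6.05. Of 21 tested genes 20 were lower and none was higher, Neurog3 being the exception at 41.7 and 3.47 in wild-type against 9.69 and 2.52 in TKO. Neurog2 had 796 and 1912 in wild-type against 1.08 and 0 in TKO, at least 386-fold lower. Nhlh1 and Nhlh2, factors of newly born neurons, had means of 1644 and 3566 in wild-type and were at least 469-fold and 1016-fold lower. Atoh1, a factor of the rhombic lip, had 4.08 and 802 in wild-type, of which replicate 2 alone lay above the 4.31 and 7.57 in TKO.

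Genes of differentiated neurons followed, with 29 of 30 lower, none higher and a median log2 fold change of -4.10. Syn1 alone did not pass (log2 fold change -0.83 ± 0.36, adjusted p = 0.0608). Dcx (chrX:143855842-143933396, mm10), doublecortin of migrating neurons, had 9404 and 2530 in wild-type against 5.38 and 0 in TKO (log2 fold change -10.93 ± 0.90). Tubb3, the neuronal tubulin, had 17310 and 18370 in wild-type against 1281 and 1878 in TKO (log2 fold change -3.48 ± 0.35), and Elavl3, an RNA-binding protein of neurons, 3896 and 2329 in wild-type against 114 and 114 in TKO (log2 fold change -4.75 ± 0.29). The TKO libraries thus had a low level of neuronal transcripts, and CPM summed over the list were 8799 and 4502 in wild-type and 499 and 564 in TKO. Slc17a6, the glutamate transporter of excitatory neurons, had 826 and 302 in wild-type against 3.23 and 12.6 in TKO, and Slc32a1 and Gad2, genes of inhibitory neurons, had log2 fold changes of -3.52 and -4.43. Stmn2, a tubulin-binding protein of neurons, had 5518 and 3848 in wild-type against 1581 and 2125 in TKO (log2 fold change -1.32 ± 0.28). Syn1 had a log2 fold change of -0.06, Dcx of -9.70, Slc32a1 of -2.58 and Gad2 of -3.71 when wild-type replicate 1 was left out. Syn1 had a log2 fold change of -1.31 (passing the test) and Dcx of -11.58 when wild-type replicate 2 was left out. Dcx had a log2 fold change of -10.05 when TKO replicate 2 was left out.

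Genes of positions along the neural tube were examined next, since they separated the wild-type replicates as well as the genotypes. Midbrain and hindbrain genes were lower in 11 of 19 cases and higher in 0. Irx3 had 2934 and 1776 in wild-type against 227 and 170.4 in TKO (log2 fold change -3.54 ± 0.32) and Irx5 1485 and 888 in wild-type against 61.4 and 55.5 in TKO (log2 fold change -4.32 ± 0.32). Pax2 and Pax5, factors of the boundary between midbrain and hindbrain, had log2 fold changes of -5.18 and -5.11. Wnt1 was at 4.99 and 976 in wild-type against 3.23 and 2.52 in TKO, so that its difference from TKO was present in replicate 2 only. Leaving out either wild-type replicate made 2 members of the list pass as higher. Pax2 had a log2 fold change of -3.83 and Pax5 of -3.55 when wild-type replicate 1 was left out. Pax2 had a log2 fold change of -5.85 and Pax5 of -5.82 when wild-type replicate 2 was left out. Pax5 had a log2 fold change of -5.95 when TKO replicate 1 was left out.

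Dorsoventral genes of the neural tube were lower in 18 of 24 tested cases, with a median log2 fold change of -3.73, and Mnx1, a motor neuron factor, was higher. Pax3 and Pax7 mark the dorsal neural tube. Pax3 had 999 and 1510 in wild-type against 64.6 and 49.2 in TKO (log2 fold change -4.43 ± 0.63). Pax7 had 772 and 424 in wild-type against 9.69 and 10.1 in TKO (log2 fold change -5.89 ± 0.66). Lhx5, a factor of interneurons, had 1753 and 857 in wild-type against 4.31 and 1.26 in TKO (log2 fold change -8.74 ± 0.62). In these 3 genes both wild-type replicates were high. The wild-type replicates differed in other members, and 16 of the 24 were higher in replicate 1. Msx1, at 12.7 and 1182, and Gdf7, at 24.9 and 828, were mainly in replicate 2. Nkx6-1 at 1382 and 62.5, Dbx1 at 1814 and 225 and Shh at 156 and 33.6 were mainly in replicate 1, and these 5 genes were chosen after their values were seen. TKO levels were 12.9 and 21.4 for Msx1, 23.7 and 24 for Gdf7, 19.4 and 25.2 for Nkx6-1 and 11.8 and 6.31 for Shh, and Dbx1 had no count. Leaving out either wild-type replicate made 2 members of the list pass as higher, 1 more than with all libraries. Lhx5 had a log2 fold change of -8.14 when wild-type replicate 1 was left out.

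**Figure D3:**
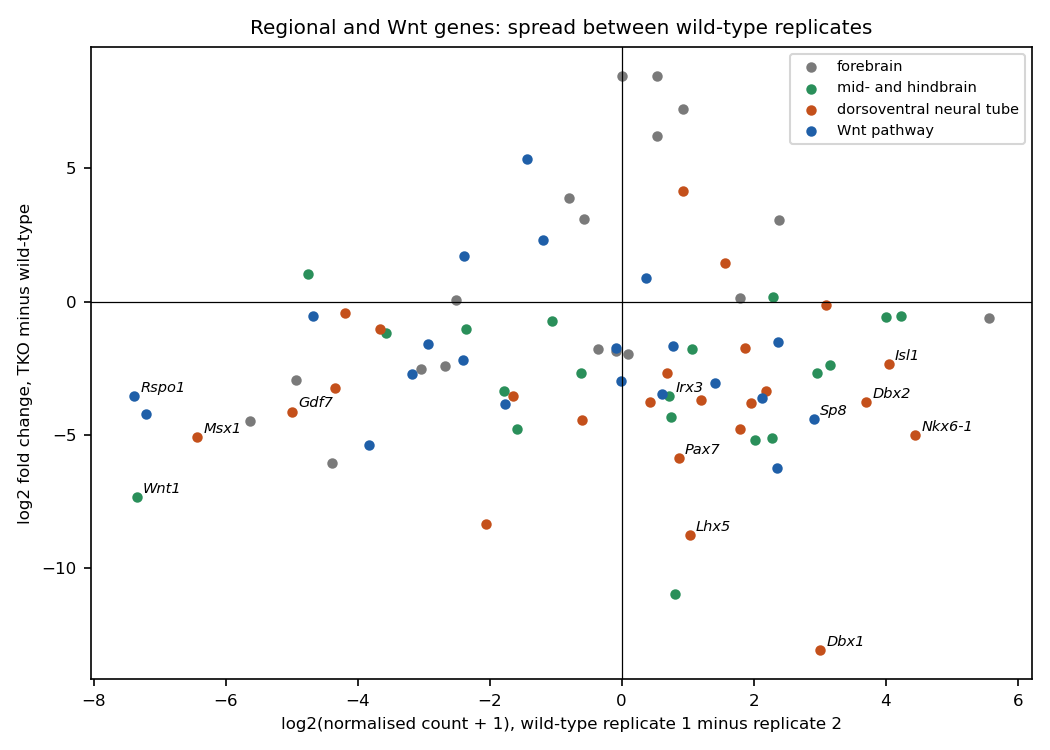
For each tested forebrain, midbrain and hindbrain, dorsoventral and Wnt pathway gene, the difference between wild-type replicates 1 and 2 in log2(normalised count + 1) is on the horizontal axis and the log2 fold change between TKO and wild-type on the vertical axis. Wnt1, Msx1, Gdf7 and Rspo1 on the left were mainly in replicate 2 and Nkx6-1 and Isl1 on the right mainly in replicate 1, and all 6 are below 0 on the vertical axis.

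Forebrain genes did not move together. Of 18 tested members 6 were higher and 6 lower, and the median log2 fold change was -0.28. The higher genes included Six3, Rax, Crx, Dlx5 and Dlx6, of which Dlx5 and Dlx6 are neighbouring homeobox genes that surface ectoderm also expresses. Dlx5 had 0.453 and 0 in wild-type against 141 and 160.3 in TKO (at least 62.3-fold higher). Dlx6 had 0 and 0 in wild-type against 34.5 and 48 in TKO (at least 17.1-fold higher). Rax, a factor of the eye field, was at 0.453 and 0 in wild-type against 32.3 and 30.3 in TKO, at least 12.9-fold higher. The lower genes included Lhx2, Lhx9, Otx1, Barhl2 and Tbr1, and the number of lower genes went from 6 to 3 without wild-type replicate 2, to 3 without TKO replicate 1 and to 2 without TKO replicate 2.

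Hox genes mark position along the body axis in the order of their place in the clusters. Of 30 tested genes 20 were higher and 5 lower. The 5 that were lower were Hoxa2, Hoxa3, Hoxb1, Hoxb2 and Hoxb3, 3′ members expressed in the hindbrain. Hoxa2 had 1056 and 841 in wild-type against 30.1 and 30.3 in TKO (log2 fold change -4.95 ± 0.46), and Hoxb1, a gene of the fourth rhombomere, 562 and 269.8 in wild-type against 23.7 and 24 in TKO (log2 fold change -4.10 ± 0.58). The genes that were higher included members further 5′ in the clusters, such as Hoxa10 with 0 and 0 in wild-type against 87.2 and 32.8 in TKO, Hoxb9 with 0.453 and 0 in wild-type against 73.2 and 73.2 in TKO and Hoxc13 with 0.453 and 0 in wild-type against 56 and 26.5 in TKO. For 16 of the tested genes a group had 3 counts or fewer in each library. These could pass the filter on low counts only through other groups, so that the share called was in part set by the filter. The median log2 fold change was 5.35, or 2.29 with these at their bound, and CPM summed over the list were 314 and 201 in wild-type and 91.8 and 61.7 in TKO. Hoxb1 had a log2 fold change of -3.48 when wild-type replicate 1 was left out.

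Neural crest genes, 7 higher and 4 lower of 16, did not move as a group. Sox10, a defining factor of migrating crest, had 11.8 and 4.63 in wild-type against 60.3 and 48 in TKO (log2 fold change 2.62 ± 0.68), and Twist1, of crest and mesoderm, 17.2 and 38.2 in wild-type against 187 and 102 in TKO. Erbb3, a receptor of crest and of epithelia, had 19.5 and 22 in wild-type against 2059 and 2428 in TKO (log2 fold change 6.79 ± 0.32). Tfap2b, Ret, Ngfr and Ednrb were lower, with log2 fold changes of -4.17 for Ednrb and -4.87 for Tfap2b, and the number lower went from 4 to 2 without wild-type replicate 1. Of 11 tested glial genes, 2 (Gfap and Aldoc) were higher and 3 (Slc1a2, Slc1a3 and Sox8) lower, the number higher being 1 without either TKO replicate, and Slc1a2, a glutamate transporter of radial glia and astrocytes, had 2751 and 2117 in wild-type against 71.1 and 117 in TKO (log2 fold change -4.68 ± 0.39). Sox10 had a log2 fold change of 3.53 and Tfap2b of -5.63 when wild-type replicate 1 was left out. Tfap2b had a log2 fold change of -3.16 when wild-type replicate 2 was left out.

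Mesoderm genes were higher in 13 of 21 tested cases, mostly at low levels. Eomes, a T-box factor of the primitive streak, had 15.4 and 45.2 in wild-type against 350 and 384 in TKO (log2 fold change 3.74 ± 0.37, adjusted p = 9.05e-07). T, brachyury, was at 4.99 and 1.16 in wild-type against 38.8 and 29 in TKO (log2 fold change 3.19 ± 1.13). Gata4 and Hand1 are factors of the heart and of extraembryonic tissues. Gata4 had 0.453 and 0 in wild-type against 219.7 and 145 in TKO (at least 75.5-fold higher). Hand1 had 0.453 and 0 in wild-type against 123 and 122 in TKO (at least 50.7-fold higher). The 2 members that were lower were Wnt3 and Wnt3a, each mainly in wild-type replicate 2. Wnt3 had 53 and 722 in wild-type against 53.8 and 61.8 in TKO, Wnt3a had 0.907 and 835 in wild-type against 12.9 and 6.31 in TKO, and neither passed without wild-type replicate 2, without TKO replicate 1 or without TKO replicate 2. Mesp1 and Msgn1, defining genes of nascent and presomitic mesoderm, had too few counts to be tested. Eomes had a log2 fold change of 3.03 when wild-type replicate 1 was left out. Eomes had a log2 fold change of 4.59 and T of 2.77 (no longer passing the test) when wild-type replicate 2 was left out. T had a log2 fold change of 2.96 (no longer passing the test) when TKO replicate 1 was left out.

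Among 14 tested mesenchymal genes 6 were higher and 1, Col5a1, lower, the latter call being lost without either TKO replicate. Col1a1, the collagen of connective tissue, had 183 and 269.8 in wild-type against 1556 and 2224 in TKO (log2 fold change 3.09 ± 0.57) and Fn1, fibronectin, 2950 and 2470 in wild-type against 11860 and 11320 in TKO (log2 fold change 2.12 ± 0.37). Endoderm genes were higher in 11 of 14 tested cases and lower in 1, Lama1, with 2 lower without wild-type replicate 1. Gata6 and Sox17 are factors of primitive and definitive endoderm. Gata6 had 3.63 and 0 in wild-type against 75.4 and 73.2 in TKO (log2 fold change 4.90 ± 0.74). Sox17 had 3.17 and 2.32 in wild-type against 78.6 and 30.3 in TKO (log2 fold change 4.22 ± 0.62). Cer1, a secreted antagonist of anterior endoderm, was at 0 and 0 in wild-type against 47.4 and 51.7 in TKO, at least 20.5-fold higher. The hepatocyte and yolk sac genes Afp, Alb and Apoa1 were too low to be tested. Ttr was at 5.44 and 1331 in wild-type against 53.8 and 56.8 in TKO and did not pass. Of 12 tested genes of blood and endothelium, 3 (Tek, Klf1 and Etv2) were higher and 2 (Tal1 and Hbb-bh1) lower, the latter being 1 without wild-type replicate 1 and without either TKO replicate. Sox17 had a log2 fold change of 3.37 when TKO replicate 1 was left out.

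Epithelial genes of surface ectoderm were higher in 10 of 11 tested cases and lower in 0, with a median log2 fold change of 4.82, or 4.19 with 3 genes at their bound. Krt8 and Krt18 are keratins of simple epithelia. Krt8 had 10.9 and 92.6 in wild-type against 1218 and 1468 in TKO (log2 fold change 4.92 ± 0.67). Krt18 had 6.35 and 175 in wild-type against 1449 and 1470 in TKO (log2 fold change 4.19 ± 0.79). Dsp, desmoplakin of desmosomes, had 61.2 and 96.1 in wild-type against 2692 and 3615 in TKO (log2 fold change 5.38 ± 0.27), and Grhl2, an epithelial transcription factor, 14.5 and 8.11 in wild-type against 432 and 555 in TKO (log2 fold change 5.34 ± 0.29). Krt5, a keratin of stratified epithelia, had 0 and 0 in wild-type against 46.3 and 115 in TKO, and Trp63, a defining factor of surface ectoderm, had too few counts to be tested. All 7 tested genes of the trophoblast list were higher. Of these, 4 had 3 counts or fewer in each wild-type library and could pass the filter on low counts only through other groups. Gcm1 was at 0 and 0 in wild-type against 65.7 and 78.2 in TKO, Krt7 at 0 and 3.47 in wild-type against 249 and 295 in TKO and Cdx2 at 0.907 and 0 in wild-type against 23.7 and 10.1 in TKO, while Elf5, Tpbpa and Psg29 had too few counts to be tested. Krt8 had a log2 fold change of 3.87 and Krt18 of 3.07 when wild-type replicate 1 was left out. Krt8 had a log2 fold change of 6.96 and Krt18 of 7.85 when wild-type replicate 2 was left out.

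Cadherins of epithelium and of neural tissue were compared next. Cdh1, E-cadherin of pluripotent cells and epithelia, had 23.6 and 34.7 in wild-type against 4899 and 5504 in TKO (log2 fold change 7.55 ± 0.28, adjusted p = 2.78e-10). Cdh2, N-cadherin of neural tissue, had 3484 and 2054 in wild-type against 378 and 366 in TKO (log2 fold change -2.88 ± 0.51, adjusted p = 0.000248). The 2 cadherins thus moved in opposite directions, each with no overlap between the groups. Of the 18 genes of the adhesion list 10 were higher and 7 lower. Epcam had 4.53 and 35.9 in wild-type against 1979 and 2460 in TKO (log2 fold change 7.14 ± 0.56), and the claudins Cldn3, Cldn4 and Cldn7 of tight junctions had log2 fold changes of 2.99, 7.98 and 5.89. Esrp1, a splicing factor of epithelial cells, had 2.72 and 2.32 in wild-type against 798 and 1050 in TKO (log2 fold change 8.43 ± 0.45). Zeb1, Zeb2 and Cdh11, genes of mesenchymal and neural cells, were lower, with log2 fold changes of -2.49, -2.57 and -2.79. Epcam had a log2 fold change of 5.96 when wild-type replicate 1 was left out. Epcam had a log2 fold change of 8.92 and Cdh11 of -2.19 when wild-type replicate 2 was left out. Cdh11 had a log2 fold change of -4.31 when TKO replicate 1 was left out. Cdh11 had a log2 fold change of -2.07 (no longer passing the test) when TKO replicate 2 was left out.

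The clustered protocadherins, adhesion molecules that give neurons their individual surface, were lower in 42 of 50 tested cases and higher in 1, with a median log2 fold change of -3.74, or -3.44 with 14 genes at their bound. Pcdhb16 of the beta cluster had 543 and 155 in wild-type against 6.46 and 7.57 in TKO (log2 fold change -5.61 ± 0.72). Pcdhgc3 of the gamma cluster had 1039 and 964 in wild-type against 262 and 168 in TKO (log2 fold change -2.20 ± 0.28), and Pcdhga1 was higher, a call lost without wild-type replicate 2 and without either TKO replicate. Members of a cluster share exons or much of their sequence, and counts can be split between them. The 14 genes at their bound could pass the filter on low counts only through other groups. All 50 were above replicate 2 in wild-type replicate 1, and 27 passed as lower when that replicate was left out. Pcdhb16 had a log2 fold change of -4.43 when wild-type replicate 1 was left out. Pcdhb16 had a log2 fold change of -6.23 when wild-type replicate 2 was left out.

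Signalling genes were taken by pathway. In the Nodal pathway, which keeps epiblast cells pluripotent and patterns them, 6 of 8 tested genes were higher and 2 lower. The ligand Nodal had 7.25 and 1.16 in wild-type against 1217 and 1098 in TKO (log2 fold change 7.76 ± 0.45). Lefty1 and Lefty2 are its feedback inhibitors. Lefty1 had 1.81 and 0 in wild-type against 2466 and 2922 in TKO (log2 fold change 10.93 ± 0.72). Lefty2 had 6.8 and 2.32 in wild-type against 3311 and 2859 in TKO (log2 fold change 9.15 ± 0.68). Ligand and inhibitors were thus expressed in TKO and close to silent in wild-type. The receptor Acvr2b and the transducer Smad3 were lower, with log2 fold changes of -0.99 and -1.63.

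FGF pathway genes were higher in 9 and lower in 3 of 15 cases. The targets Etv4, Etv5 and Spry4 were higher. Spry4 had 22.2 and 82.2 in wild-type against 730.1 and 834 in TKO (log2 fold change 4.06 ± 0.46). Etv5 had 42.6 and 221 in wild-type against 3021 and 3630 in TKO (log2 fold change 4.75 ± 0.49). The 3 lower genes were the receptors Fgfr2 and Fgfr3 and the phosphatase Dusp4, Fgfr3 with 4184 and 3086 in wild-type against 77.5 and 54.3 in TKO (log2 fold change -5.76 ± 0.35), and Fgfr1 did not pass. In the LIF pathway 5 of 8 tested genes (Lif, Il6st, Jak1, Pim1 and Pim3) were higher and 0 lower. Lif itself had 4.99 and 15.1 in wild-type against 167 and 213 in TKO (log2 fold change 4.45 ± 0.50), and Socs3, its feedback target, had 171 and 102 in wild-type against 126 and 108 in TKO and did not pass. Spry4 had a log2 fold change of 3.26, Etv5 of 3.92 and Lif of 3.66 when wild-type replicate 1 was left out. Spry4 had a log2 fold change of 5.16, Etv5 of 6.31 and Lif of 5.24 when wild-type replicate 2 was left out.

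Of 15 BMP pathway genes 6 were higher and 5 lower. Bmp4, the signal that specifies PGCs in the embryo and was not added here, had 5.89 and 15.1 in wild-type against 394 and 588 in TKO (log2 fold change 5.74 ± 0.48, adjusted p = 1.51e-07). The 5 lower genes were Chrd, an antagonist, and Id1, Id2, Id3 and Id4, direct targets of BMP signalling. Id1 had 383 and 3000 in wild-type against 279 and 349.6 in TKO (log2 fold change -2.41 ± 0.63). Id3 had 495 and 4127 in wild-type against 417 and 467 in TKO (log2 fold change -2.37 ± 0.63). Without wild-type replicate 2, where both were high, 2 members were lower in place of 5. Bmp4 had a log2 fold change of 5.03, Id1 of -3.24 and Id3 of -3.21 when wild-type replicate 1 was left out. Bmp4 had a log2 fold change of 6.38, Id1 of -0.26 (no longer passing the test) and Id3 of -0.14 (no longer passing the test) when wild-type replicate 2 was left out.

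Wnt pathway genes were higher in 3 (Tcf7, Tcf7l2 and Notum) and lower in 15 of 21 tested cases. Wnt7b had 2507 and 2527 in wild-type against 246 and 382 in TKO (log2 fold change -2.99 ± 0.30) and the receptor Fzd3 10260 and 6693 in wild-type against 836 and 683 in TKO (log2 fold change -3.46 ± 0.44). Notum, a secreted inhibitor and target, was higher, with 4.53 and 13.9 in wild-type against 257 and 379 in TKO (log2 fold change 5.34 ± 0.76). The target Axin2 stood at 583 and 3077 in wild-type against 410.3 and 375 in TKO. Without wild-type replicate 2, 7 genes were higher and 9 lower, and without TKO replicate 2 there were 9 lower. Of 10 Hedgehog pathway genes 1 was higher and 5 (Ptch1, Gli3, Smo, Boc and Gas1) were lower. Gli1, the target that reports the pathway, had 263 and 199 in wild-type against 209 and 218 in TKO and did not pass, while the coreceptors Boc and Gas1 had log2 fold changes of -4.16 and -3.62. No Hedgehog gene was higher without either TKO replicate, and 2 were higher without wild-type replicate 1. Notum had a log2 fold change of 4.51 when wild-type replicate 1 was left out. Notum had a log2 fold change of 6.12 and Gas1 of -2.75 when wild-type replicate 2 was left out. Boc had a log2 fold change of -5.03 and Gas1 of -4.86 when TKO replicate 1 was left out. Gas1 had a log2 fold change of -2.97 when TKO replicate 2 was left out.

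Retinoic acid genes were higher in 4 (Aldh1a2, Aldh1a3, Cyp26a1 and Dhrs3) and lower in 8 of 17 tested cases. Crabp1 and Crabp2 are cytoplasmic binding proteins of retinoic acid. Crabp1 had 7752 and 7621 in wild-type against 158 and 126 in TKO (log2 fold change -5.73 ± 0.46). Crabp2 had 7122 and 8221 in wild-type against 212 and 192 in TKO (log2 fold change -5.23 ± 0.37). The degrading enzymes moved in opposite directions. Cyp26b1 had 5879 and 1209 in wild-type against 18.3 and 12.6 in TKO (log2 fold change -7.80 ± 0.86), and Cyp26a1 1.81 and 6.95 in wild-type against 292 and 278 in TKO (log2 fold change 6.31 ± 0.64). Meis1, a homeobox target of retinoic acid, had 2699 and 2040 in wild-type against 242 and 179 in TKO (log2 fold change -3.47 ± 0.51). Cyp26b1 had a log2 fold change of -6.25 and Cyp26a1 of 5.35 when wild-type replicate 1 was left out. Cyp26b1 had a log2 fold change of -8.52 and Cyp26a1 of 7.23 when wild-type replicate 2 was left out.

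Among genes of DNA methylation 7 were higher and 5 lower of 18 tested, the lower genes including Tdg, Mbd1, Mbd3 and Gadd45g, and the number of lower genes was 3 without wild-type replicate 1 and without either TKO replicate. Dnmt1, the maintenance methyltransferase, had 3901 and 4236 in wild-type against 4509 and 4638 in TKO and Dnmt3a 3752 and 3372 in wild-type against 2538 and 2934 in TKO, and neither passed. Dnmt3l, a cofactor of germ cells and pluripotent cells, had 1.81 and 0 in wild-type against 878 and 879.7 in TKO (log2 fold change 9.31 ± 0.68). Tdg, the glycosylase that removes the products of TET enzymes, was lower, with 60.3 and 51 in wild-type against 17.2 and 25.2 in TKO (log2 fold change -1.38 ± 0.48). The Gadd45 genes were divided, Gadd45a and Gadd45b being higher and Gadd45g, which neuronal precursors express, lower, with log2 fold changes of 2.11, 3.17 and -3.12. Tdg had a log2 fold change of -1.25 (no longer passing the test) when wild-type replicate 1 was left out. Tdg had a log2 fold change of -1.13 (no longer passing the test) when TKO replicate 1 was left out. Tdg had a log2 fold change of -1.66 (no longer passing the test) when TKO replicate 2 was left out.

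Polycomb genes were higher in 14 and lower in 8 of 23 cases. Chromobox subunits moved in opposite directions, with Cbx7 of pluripotent cells at 161 and 56.7 in wild-type against 2215 and 2094 in TKO (log2 fold change 4.26 ± 0.33) and Cbx8 at 222 and 263 in wild-type against 46.3 and 51.7 in TKO (log2 fold change -2.28 ± 0.35). Ezh2, the methyltransferase of PRC2, was lower, with a log2 fold change of -0.68 ± 0.16, and its partners Eed and Suz12 were higher, with 1.35 ± 0.15 and 1.38 ± 0.22. Mga and Pcgf6, subunits of PRC1.6 that silence germline genes, were higher, with log2 fold changes of 1.0 and 0.99. Of the Lin28 group, 2 of 10 were higher and 3 (Lin28b, Igf2bp3 and Dis3l2) lower. Lin28a had 1114 and 659 in wild-type against 3531 and 4742 in TKO (log2 fold change 2.24 ± 0.31), and Trim71 998 and 552 in wild-type against 4449 and 5241 in TKO (log2 fold change 2.66 ± 0.25). Cbx7 had a log2 fold change of 5.26 when wild-type replicate 1 was left out.

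Imprinted genes were lower in 10 of 25 cases and higher in 3 (Phlda2, Impact and Zrsr1). Cdkn1c, an inhibitor of the cell cycle, had 10550 and 9202 in wild-type against 702 and 570.4 in TKO (log2 fold change -3.94 ± 0.30), and Mest 2999 and 8520 in wild-type against 271 and 297 in TKO (log2 fold change -4.32 ± 0.55). Mest was also lower in EpiLCs, before aggregation, with means of 1104 in wild-type and 16.4 in TKO (log2 fold change -6.01, adjusted p = 0.000161). Phlda2 was higher, with 0.453 and 9.26 in wild-type against 201 and 160.3 in TKO (log2 fold change 5.76 ± 0.63). Peg13 and Nnat, which neural tissue expresses, were mainly in wild-type replicate 1. Peg13 had 2050 and 4.63 in wild-type against 39.8 and 32.8 in TKO, and Nnat had 4858 and 328 in wild-type against 103 and 54.3 in TKO. Without that replicate 8 members were higher and 5 lower, and without TKO replicate 2 there were 6 lower. Phlda2 had a log2 fold change of 4.28 when wild-type replicate 1 was left out. Mest had a log2 fold change of -3.37 when wild-type replicate 2 was left out.

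Interferon-related genes were higher in 9 of 14 tested cases and lower in 1. Oasl2 was at 0.453 and 0 in wild-type against 108 and 94.7 in TKO, at least 41.9-fold higher, and Samd9l at 2.27 and 0 in wild-type against 381 and 419 in TKO (log2 fold change 7.90 ± 0.59). Irf7, a factor of the interferon response, had 22.2 and 13.9 in wild-type against 15.1 and 15.1 in TKO and did not pass. Ifit2, the lower gene, had 53.5 and 49.8 in wild-type against 10.8 and 8.83 in TKO.

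Counts of genes of metabolism and growth changed when single libraries were left out. Of 19 glycolysis genes 8 were higher and 1, Eno2 of neurons, was lower, with 13 higher without wild-type replicate 1 and none lower without either TKO replicate. Slc2a3, the glucose transporter named above, had a log2 fold change of 3.0 ± 0.61. Of 35 tested complex I genes 15 were lower and 1 higher, and leaving out single libraries gave 28 lower (wild-type replicate 1), 2 lower and 4 higher (wild-type replicate 2), 3 lower (TKO replicate 1) and 7 lower (TKO replicate 2). Of 81 ribosomal protein genes 25 were higher and 0 lower. Without wild-type replicate 1 there were 14 higher and 6 lower, and without wild-type replicate 2 there were 72 higher. The germ cell copies Rpl10l and Rpl39l were an exception in size, Rpl10l at 1.81 and 4.63 in wild-type against 554 and 844 in TKO (log2 fold change 7.99 ± 0.65) and Rpl39l at 0.453 and 0 in wild-type against 197 and 217 in TKO, at least 85.7-fold higher. Cell cycle genes were higher in 11 and lower in 7 of 22 cases. Of 16 stress genes 4 (Hspa1a, Hspa1b, Mdm2 and Phlda3) were higher and 2 (Ddit3 and Jun) lower, with 2 higher without TKO replicate 2 and 1 lower without TKO replicate 1 or either wild-type replicate. Slc2a3 had a log2 fold change of 4.47 and Rpl10l of 7.21 when wild-type replicate 1 was left out. Slc2a3 had a log2 fold change of 2.29 when wild-type replicate 2 was left out.

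By chromosome, the day 6 medians of the X and the Y lay above those of the autosomes. Of the 620 tested genes of the X 23.4% were higher in TKO and 8.06% lower, with a median log2 fold change of 0.54. This median was 0.56 in EpiLCs and 0.38 at day 2, so that it was present before aggregation. Chromosome 14 had medians of 0.24 at day 6, 0.26 in EpiLCs and 0.22 at day 2, and the day 6 medians of the other autosomes lay between -0.16 and 0.06. The Y had only 8 tested genes, of which 37.5% were higher and 12.5% lower, with medians of 1.74 at day 6, -0.55 in EpiLCs and 1.18 at day 2. Of the sex-linked genes examined, the Y-linked Ddx3y had 519.5 and 513 in wild-type against 109.8 and 141 in TKO (log2 fold change -2.02 ± 0.36), while the Y-linked Eif2s3y was higher, with a log2 fold change of 0.97 ± 0.25. Of the 4 genes of that list 1 was higher and 2, Ddx3y and Kdm5d, were lower, the latter being 1 without wild-type replicate 1 or either TKO replicate. Chromosome copy number was not measured.

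**Figure D4:**
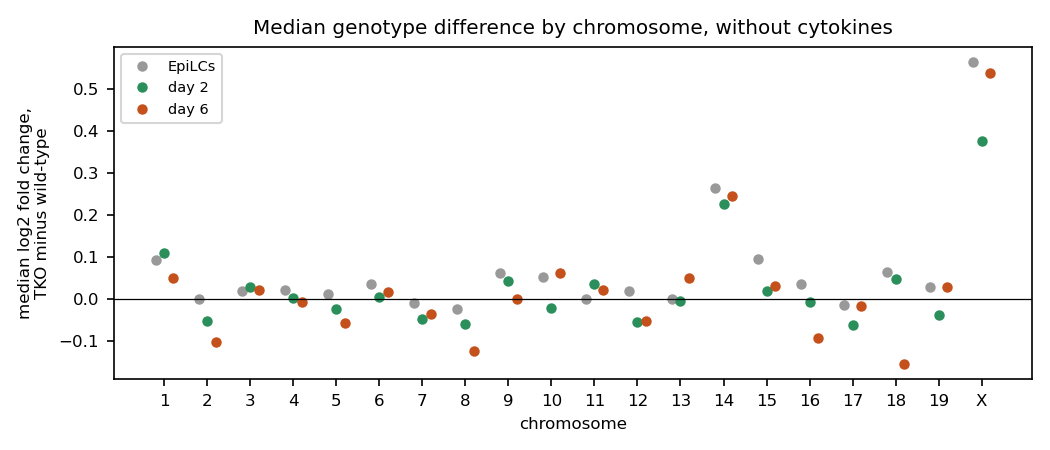
Median log2 fold change between TKO and wild-type over the tested genes of each chromosome in EpiLCs (grey), at day 2 (green) and at day 6 (orange), all without cytokines, with chromosome Y, 8 tested genes, left out. The X chromosome is highest, at 0.56, 0.38 and 0.54, followed by chromosome 14.

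The day 6 difference was then compared with that at day 2 and in EpiLCs, for which 2 EpiLC libraries and 2 libraries of whole day 2 aggregates without cytokines were at hand for each genotype. At an adjusted p below 0.05, the difference between genotypes was more positive at day 6 than at day 2 in 1627 genes (9.81% of those tested) and more negative in 1406 (8.48%). Against EpiLCs it was more positive in 3075 genes (18.5%) and more negative in 3063 (18.5%). With the limit on size as well, a difference of differences beyond 2 on the log2 scale, the counts were 822 (4.96%) and 751 (4.53%, or 1160 without wild-type replicate 2) against day 2 and 1676 (10.1%) and 1416 (8.54%) against EpiLCs. Between day 2 and day 6 the difference became more negative in 26 of 30 neuronal genes and 13 of 21 proneural genes, and more positive in none of either list. Their medians were nearer 0 before, -0.25 in EpiLCs and -0.55 at day 2 for neuronal genes and -0.41 and -0.71 for proneural genes. Members differed at day 2, with log2 fold changes of -5.93 ± 0.82 for Nhlh1, -3.22 ± 0.86 for Dcx and -0.31 ± 0.32 for Tubb3. Neural progenitor genes had medians of -0.17 in EpiLCs, -2.11 at day 2 and -4.01 at day 6, and 9 of 18 were more negative at day 6 than at day 2.

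Pluripotency genes had a median log2 fold change of 1.10 in EpiLCs, 5.01 at day 2 and 7.51 at day 6, and 12 of 19 were more positive at day 6 than at day 2. Nanog had log2 fold changes of 1.40, 1.80 and 8.93, and the last 2 differed by 7.13 ± 0.45 (adjusted p = 1.71e-07). Pou5f1, high in EpiLCs of both genotypes, had 0.04, 0.67 and 8.38. Cdh1 had -0.11, 0.62 and 7.55, while Prdm14 was already at 5.02 in EpiLCs. PGC genes had medians of 0.76, 3.44 and 5.71, and Nanos3 was the member that turned, with 3.77 at day 2 and -0.77 at day 6, a difference of -4.54 ± 0.66 (adjusted p = 0.000248). Meiosis genes had medians of 0.56, 2.88 and 4.65, with 12 of 31 more positive at day 6 than at day 2.

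The 2-cell-like list had a negative median in EpiLCs, -3.16, at low counts, and positive medians at both later days. Tmem92 had EpiLC means of 8.93 for wild-type and 0 for TKO, against no count in wild-type aggregates at day 6, and its difference in EpiLCs had adjusted p = 0.0179. Of 12 tested members 10 were more positive at day 6 than in EpiLCs and 9 more positive than at day 2. Nodal pathway genes were more positive at day 6 than at day 2 in 6 of 8 cases, with medians of 0.02 in EpiLCs and 1.08 at day 2. Surface ectoderm genes were more positive in 7 of 11 cases and adhesion genes in 8 of 18. Of the midbrain and hindbrain list, in contrast, 3 genes were more negative and 2 more positive at day 6 than at day 2, and its median was -2.64 at day 2 and -2.66 at day 6.

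**Figure D5:**
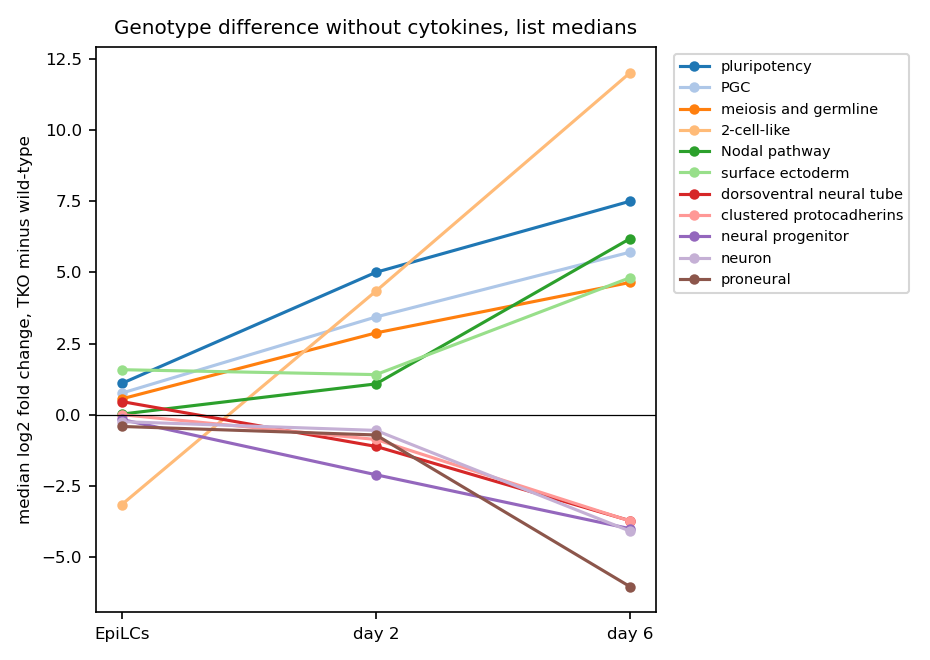
Median log2 fold change between TKO and wild-type of 11 gene lists in EpiLCs and in aggregates without cytokines at days 2 and 6. Pluripotency, PGC and meiosis medians are positive and higher at each time. Those of neuronal and proneural genes are at -0.55 and -0.71 at day 2 and at -4.10 and -6.05 at day 6.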

How the data were processed

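Whole aggregates of wild-type and TKO cells were profiled by total RNA-seq after depletion of ribosomal RNA. Per the submitters' processing notes and methods, the authors trimmed reads with Trim Galore 0.5.0 and cutadapt 1.16, aligned them with STAR 2.7.1a to mm10 and deposited raw fragment counts per gene from featureCounts (Subread 1.5.2) with the refGene annotation. No strand or multimapping option was given, so that overlapping and antisense genes and near-identical copies cannot be told apart. The 33 rows of the deposited count table that held a command line and no values were dropped, and no sample column was left unused.

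Low genes were removed with filterByExpr, leaving 16582 of 25239 genes. Genes at 3 counts or fewer in each library of a group passed it only through other groups. Where a list holds many such genes, its share of tested members called is in part set by the filter. A quasi-likelihood model (edgeR 4.0.16, limma 3.58.1, R 4.3.3) with TMM factors and 1 mean for each of the 9 groups was fitted to all 18 libraries, so that groups shared the estimate of spread. P-values were adjusted by the Benjamini-Hochberg method over all genes tested. SE values were approximated from the fold change and the square root of the F statistic. Genes were called at an adjusted p under 0.05 with a log2 fold change past 2, and members of gene lists were also counted by adjusted p alone. Normalised counts are counts divided by DESeq2 1.42.0 size factors. At total counts of 11286050 to 33893720, 3 counts in a library, taken as the floor, correspond to mean normalised counts of 2.42 in wild-type and 3.51 in TKO. Floors cover counting error only.

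Genes were named from 43 lists of lineage, pathway and housekeeping genes, from the 12 highest and 12 lowest log2 fold changes among called genes with a mean count of at least 100 and no overlap, from the 10 largest count differences in each direction, and from the 6 highest and 6 lowest differences between time points. Some genes of these lists and rules are counted but not reported here by name. The comparison and the lists were chosen with earlier results of these data known. The script was tested on simulated counts. Gene coordinates are RefSeq on mm10, exon and coding lengths of the Tet genes are GENCODE vM21, and promoters are RefSeq on GRCm38.p6. Alternatives were DESeq2, other scaling factors, other filters and thresholds, a model of the compared libraries alone, a replicate block and leaving out each library; the counts of list members without each library were chosen after seeing the data.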

Additional observations from a re-analysis of the deposited data

Results flagged for a closer look

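The difference between TKO and wild-type itself differed between time points, by the interaction term of the edgeR model, in 822 genes that were more positive and 751 that were more negative at day 6 than at day 2 and in 1676 and 1416 genes against EpiLCs. Values below are differences of log2 fold changes. Where a group had 3 counts or fewer in each library they depend on the prior count of the fit and give an order only.

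Neural genes were among the most negative between day 2 and day 6, with Vxn at -10.14, Chl1, a neural adhesion molecule, at -9.03, C130071C03Rik at -8.85 and Adra1a, an adrenergic receptor, at -8.74. C130071C03Rik had means of 6.42 in wild-type and 26.5 in TKO at day 2 and 2825 and 24.0 at day 6. Ttr, the transthyretin of choroid plexus and visceral endoderm, stood at -11.80, but its wild-type level at day 6 was 5.44 in replicate 1 and 1331 in replicate 2. The order of the genotypes turned in 3 of the most positive genes. Vrtn, at 9.19, went from a mean of 1016 to 0.453 in wild-type and from 423 to 178 in TKO. Eras, a Ras-like gene of embryonic stem cells, at 9.06, went from 388 to 0.453 in wild-type and stayed at 153 and 154 in TKO between day 2 and day 6. Cyp26a1, at 9.03, went from 583 to 4.38 in wild-type and from 90.5 to 285 in TKO. The remaining positive genes were Gm21761 at 10.40, Zscan4d at 9.64 and Zscan4f at 8.66, of families with near-identical copies.

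Against EpiLCs, the most negative genes again included neural genes, with Dbx1 at -14.78, Dcx at -13.18, Lhx5 at -11.13, Msx3 at -10.82 and Fabp7 at -10.61. The most positive were genes of the 2-cell-like state or of unnamed families, with Zscan4d at 20.63, Gm21761 at 19.32, Tmem92 at 18.06, Usp17lb at 17.58, Gm8300 at 17.46 and Usp17la at 17.38. None of these 6 genes had a count in wild-type at day 6, and Gm21761 had means of 50.4 in wild-type and 1.05 in TKO in EpiLCs.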

How the results depend on the processing

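When the fold limit was 1 on the log2 scale, 3612 genes were higher and 3208 lower in TKO, and the interaction counts were 1396 and 1270 against day 2 and 2615 and 2662 against EpiLCs. At an adjusted p below 0.01, 437 genes were more negative at day 6 than at day 2. Leaving out single libraries gave 2270 to 2554 genes higher and 1319 to 1869 lower, 660 to 1026 and 516 to 1160 for the interaction with day 2 (positive and negative) and 1484 to 1840 and 1174 to 1711 for that with EpiLCs. A model with a replicate block gave 2389 genes higher and 1550 lower, 816 and 728 against day 2 and 1659 and 1375 against EpiLCs. The deviations of same-numbered libraries from their group means correlated at 0.141 over only 2 pairs, so that the numbers were not taken to pair the samples. Scaling by library size alone moved the median of all genes from 0.0052 to 0.16 on the log2 scale. It gave 2536 genes higher and 1397 lower. The lowest counts came from 2 other settings. A model of only the libraries compared gave 1946 genes higher and 1309 lower of 15368 tested. Keeping only genes with a mean CPM of 1 or more gave 1665 higher and 1256 lower of 14073 tested. Without wild-type replicate 2, 3 genes were called in the opposite direction. Tet1, which did not pass, changed sign with library size alone (0.0485), without wild-type replicate 1 (0.56) and without TKO replicate 2 (0.10), ranging from -0.56 to 0.56 over the libraries left out, and the cause was not tested. Precision is limited by 2 libraries in each group and by genes near the floor.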
